A study of Homo sapiens with 6 samples.

Results

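The genes described here are those whose symbol is CD followed by a number and at most 1 letter, with up to 2 letters allowed for the CD300 genes. The rule uses the symbol and no measured value, and 81 of the 17911 genes in the expression table met this rule. CD stands for cluster of differentiation, a numbering scheme for leukocyte surface antigens recognised by monoclonal antibodies. The scheme groups molecules by the antibodies that bind them and not by descent or function, so the set mixes receptors, ligands, adhesion molecules, complement regulators and tetraspanins. Such antigens are used to tell blood lineages apart, and CD33 marks myeloid cells, CD14 monocytes and the CD3 chains T cells. A few members are not surface proteins of this kind, such as CD68 of endosomes and lysosomes and the secreted CD5L.

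The cells were HL-60, a human line of promyelocytic leukaemia, and 6 RNA libraries were sequenced. Amiodarone, an antiarrhythmic and cationic amphiphilic drug, had been given at 10 uM for 24 h in 3 of them. The remaining 3 were controls, and the labels leave unsaid whether these received a vehicle. Separate cultures are not stated either, and p-values therefore reflect library-to-library spread that may be technical. Values are RPKM-like, that is, scaled by gene length and library depth as far as the numbers show, since the deposited header names no unit. A gene was tested when it had a value of at least 1 in 3 or more libraries. Of the 81 CD-numbered genes 44 reached this and 37 did not.

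The libraries labelled as promyelocytes expressed MPO, the myeloperoxidase of primary granules, at 2646, 2596 and 2598 after amiodarone and at 5914, 5975 and 5998 in controls. All 7 genes of a promyelocyte and HL-60 marker list passed the filter, with summed values of 5030 to 5065 after amiodarone and 8781 to 8877 in controls (5 called lower, 1 higher). A call is an adjusted p below 0.05 by limma, and calls were common in the whole table. They were made for 33.5% of all tested genes upward and 44.8% downward. Of 6 monocyte and macrophage markers CD68, FCGR1A and LYZ passed the filter and all 3 were called higher, with list sums of 187 to 193 after amiodarone and 152 to 158 in controls. The change of FCGR1A was small, with 20.85, 20.55 and 22.5 after amiodarone and 18.04, 20.32 and 17.86 in controls (limma, adjusted p = 0.0105). CD14 and CD163 of that list stayed under a value of 1 in every library and lay higher after amiodarone. CSF1R also missed the filter and went the other way. It had 0.5, 0.56 and 0.61 after amiodarone and 1.26, 0.93 and 1.09 in controls, without overlap. The NK cell list summed to 176 to 185 after amiodarone and 127 to 132 in controls, carried by NKG7 and KLRD1, both called higher. Erythroid and dendritic cell markers were near 0, with highest sums of 0.06 and 0.15 over all libraries. Mature neutrophil markers summed to 61.5 to 63.9 after amiodarone and 80.7 to 81.1 in controls, T cell markers to 5.12 to 5.26 after amiodarone and 2.7 to 3.8 in controls, and B cell markers to 22.4 to 23.7 after amiodarone and 23.5 to 24.0 in controls. Platelet markers summed to 1.74 to 2.15 after amiodarone and 2.54 to 2.8 in controls, and fibroblast and endothelium markers to 14.4 to 16.5 after amiodarone and 15.5 to 16.1 in controls, nearly all of it PECAM1. The part of these shifts in the values below was not tested, and in bulk RNA fewer cells of a type and less RNA per cell cannot be told apart.

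Amiodarone-treated cells carried more CD-numbered transcript in sum, chiefly through a few abundant surface molecules. The 81 values summed to 2665 to 2707 after amiodarone and to 1960 to 1999 in controls, and this was 0.469% to 0.471% of all values after amiodarone against 0.366% to 0.374% in controls. CD69, CD52, CD55, CD70 and CD48 rose by at least 2-fold on log2(value + 1), and no tested CD-numbered gene fell by that much. CD22 also rose by at least 2-fold, but it passed the filter through its amiodarone libraries alone. Over all tested genes 5.15% had a call of at least 2-fold in either direction. The strongest fall among tested members was that of CD320, at 0.629 times the control mean. CD33, the lineage antigen of the promyelocyte list, stood at 99.0, 91.9 and 95.7 after amiodarone and at 89.3, 92.2 and 93.5 in controls, with overlapping groups.

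By limma on log2(value + 1), 39 of the 44 tested members had an adjusted p below 0.05. Of these 28 were higher and 11 were lower after amiodarone. Over all 11445 tested genes it called 78.3%, with 33.5% higher and 44.8% lower, so that a call by itself separates these genes little from the rest. The groups did not overlap in 38 of the 44 members, and in 79.3% of all tested genes. The median log2 fold change was 0.40 over the tested members and -0.06 over all tested genes. That median was 0.25 without amiodarone replicate 2, when 41 members passed the filter. CD22, CD3G and CD200 reached a value of 1 in the amiodarone libraries only and so entered the test because they were high there. Among the 39 members at 1 or more in every library 25 were called higher and 11 lower, with a median of 0.39, and 77.9% of the 10630 genes at that level were called. A call of at least 1.5-fold was found in 14 members upward and 1 downward. Of all tested genes 21.1% had such a call, 9.07% upward and 12% downward. At 2-fold the count was 6 of 44 members, against 5.15% of all tested genes. These counts include members that passed the filter through the amiodarone libraries alone. Among the 39 members at 1 or more in every library, 11 were called at least 1.5-fold upward and 1 downward, against 7.57% and 12% of genes at that level. At 2-fold they were 5, against 4.93%.

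**Figure D1:**
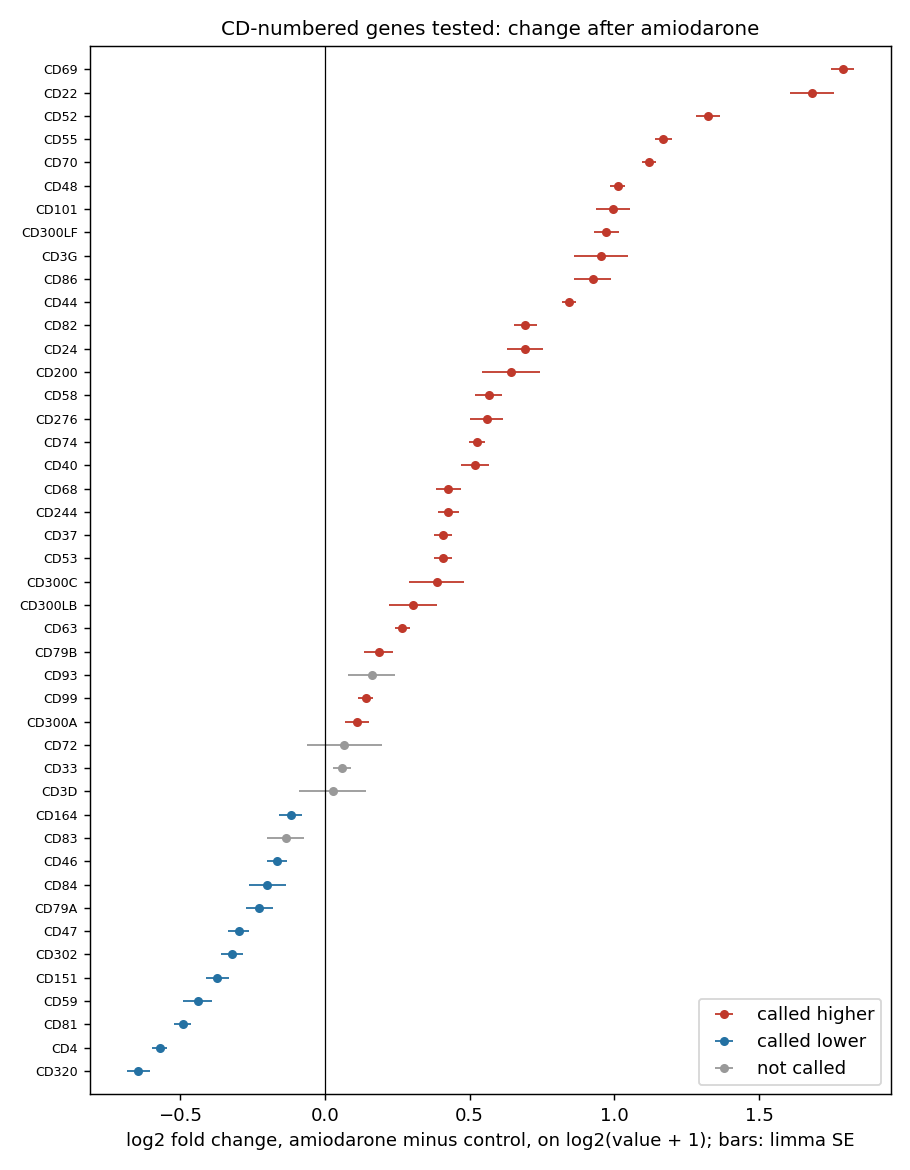
Log2 fold change of the 44 tested CD-numbered genes, amiodarone minus control, on log2(value + 1). Points are limma estimates and bars their standard errors. CD69 stands at the top with 1.79 and CD320 at the bottom with -0.64. Called higher were 28 genes and called lower 11, against 33.5% and 44.8% of all tested genes. CD22, CD3G and CD200 passed the filter through their amiodarone libraries alone.

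Sequence before the RefSeq start is shown for members with large changes and for members that share a motif. RefSeq windows (GRCh38.p14) were matched for 55 of the 81 members, and the 250 bases before each RefSeq start were searched on both strands for TGANTCA (AP-1), CACGTG (E-box), GGGA and TTCC 2 bases apart (NF-kB-like), TGATGCAA (CHOP-ATF-like) and GAGGAAGT (PU.1-like). CD22 and CD52 are the members with the largest rises that have a window, and CD320 had the largest fall. None of these 3 windows held any of the 5 motifs. They lie at chr19:35328937-35329186 on the plus strand, chr1:26317708-26317957 on the plus strand and chr19:8308359-8308608 on the minus strand. GENCODE 29 starts CD22 further upstream, at base 35319261, so all 250 bases of its window lie inside that gene model, against 1 base for CD52 and 0 for CD320.
CD22: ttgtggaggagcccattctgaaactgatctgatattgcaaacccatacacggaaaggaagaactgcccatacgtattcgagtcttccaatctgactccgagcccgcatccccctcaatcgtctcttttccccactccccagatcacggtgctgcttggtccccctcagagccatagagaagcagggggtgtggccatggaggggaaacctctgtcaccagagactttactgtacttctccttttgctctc
CD52: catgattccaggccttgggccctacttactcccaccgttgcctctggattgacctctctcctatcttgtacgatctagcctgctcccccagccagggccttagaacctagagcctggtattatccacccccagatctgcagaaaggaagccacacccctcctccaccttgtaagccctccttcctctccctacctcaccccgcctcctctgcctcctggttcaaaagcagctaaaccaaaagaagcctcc
CD320: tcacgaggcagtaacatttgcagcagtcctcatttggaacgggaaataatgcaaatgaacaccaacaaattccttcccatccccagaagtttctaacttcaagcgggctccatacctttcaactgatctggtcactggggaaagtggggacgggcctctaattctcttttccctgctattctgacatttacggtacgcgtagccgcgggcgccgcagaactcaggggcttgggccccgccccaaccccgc
The AP-1 letters occurred in 3 of 20 windows of members called higher (CD68, CD63 and CD244), in 0 of 7 windows of members called lower and in 6.6% of all 27305 windows. Over all 55 member windows it was 7, or 12.7%, and the other 4 belong to untested members (CD14, CD180, CD226 and CD27). CD68 and CD63 are shown with the match in capitals, at chr17:7579388-7579637 on the plus strand and chr12:55729010-55729259 on the minus strand. In GENCODE 29 the gene models start further upstream here too, so that all 250 bases of the CD63 window and 171 of the CD68 window, with every match shown, lie inside the annotated genes. In CD63 the earlier run of capitals is an E-box, a motif found in 6.49% of all windows. Of the 55 member windows 3 held it, those of CD63, CD164 (called lower) and CD2 (below the filter).
CD68: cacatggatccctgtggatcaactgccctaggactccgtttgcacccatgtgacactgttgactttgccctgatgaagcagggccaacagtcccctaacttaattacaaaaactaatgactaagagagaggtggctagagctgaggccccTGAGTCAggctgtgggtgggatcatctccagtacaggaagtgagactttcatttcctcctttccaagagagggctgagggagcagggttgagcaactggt
CD63: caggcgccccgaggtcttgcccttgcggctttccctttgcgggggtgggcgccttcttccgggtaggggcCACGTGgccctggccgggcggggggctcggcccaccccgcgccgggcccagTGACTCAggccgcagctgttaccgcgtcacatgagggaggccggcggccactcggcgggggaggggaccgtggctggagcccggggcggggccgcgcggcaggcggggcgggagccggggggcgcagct
The NF-kB-like letters were found in 1 of the 55 windows, that of CD24, and in 1.42% of all windows. The CHOP-ATF-like letters were in 0 of the 55 and in 0.82% of all windows. PU.1-like letters were in the windows of CD1A and CD226, both below the filter, and in 2.13% of all. A match of letters is a description and shows no binding.

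Among adhesion, progenitor and activation antigens 5 of 7 tested members were called higher and 2 lower. Over all tested genes 33.5% were called higher and 44.8% lower. The calls of CD99 and CD164 did not hold in every alternative. CD69, a lectin-like early activation antigen that keeps leukocytes in tissue, had values of 36.9, 35.7 and 37.8 after amiodarone and 10.3, 9.52 and 10.0 in controls. Every amiodarone library lay far above every control library, and the mean was 3.7-fold higher (log2 fold change 1.79, SE 0.04, limma, adjusted p = 3.96e-11). The gene is at chr12:9752486-9760901, minus strand, in GENCODE 29 (GRCh38). CD52, a short GPI-anchored glycopeptide of lymphocytes and monocytes, stood at 139, 124 and 128 after amiodarone and at 51.8, 49.9 and 52.4 in controls. The groups were well apart, 2.54-fold in the means (log2 fold change 1.32, SE 0.04, adjusted p = 2.95e-10).

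CD44, the hyaluronan receptor found on leukaemic blasts, was among the most abundant members. It had 174, 177 and 172 after amiodarone and 96.6, 95.1 and 98.3 in controls, a 1.8-fold higher mean (adjusted p = 2.33e-10). CD24, a mucin-like antigen of B cells and granulocytes, averaged 7.63 ± 0.292 after amiodarone and 4.35 ± 0.385 in controls (SD, n = 3 each), and its sequence has near-identical copies elsewhere in the genome, so its reads are uncertain. CD99, an adhesion molecule, differed by 1.1-fold (66.2 ± 0.549 after amiodarone, 60.0 ± 1.25 in controls), and under equal-sum scaling the call was lost (log2 fold change 0.051).

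The members that fell in this group were CD320 and CD164. CD320, the receptor that takes up vitamin B12 bound to transcobalamin, had 21.6, 22.1 and 20.4 after amiodarone and 32.6, 34.3 and 34.8 in controls. The groups did not overlap (log2 fold change -0.64, SE 0.04, limma, adjusted p = 7.97e-08). CD164, a sialomucin of haematopoietic progenitors, had 63.3, 69.5 and 65.7 after amiodarone and 72.0, 69.2 and 74.3 in controls. These ranges overlapped, and its call (adjusted p = 0.0168) ended under scaling by the median of ratios, without a variance trend and without amiodarone replicate 1 or control replicate 3. The stem cell antigen CD34 was listed at 0 in every library but control replicate 3, where it had 0.02. CD38, an ectoenzyme that consumes NAD, stayed below the filter at 0.91, 0.84 and 0.66 after amiodarone and 0.28, 0.29 and 0.34 in controls.

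Of 10 tested costimulatory and checkpoint molecules 7 were called higher, 2 lower and 1 was not called. Over all tested genes 33.5% were called higher and 44.8% lower. The 7 include CD200, which passed the filter through its amiodarone libraries alone. Summed values of this role group were 690 to 700 after amiodarone and 376 to 384 in controls, and CD70 and CD48 made up most of both. CD70, the TNF-family ligand of CD27, had 294.74, 282.63 and 285.32 after amiodarone and 130.37, 130.79 and 133.79 in controls. All treated libraries were higher by more than the whole control level, with a 2.18-fold higher mean (log2 fold change 1.12, SE 0.025, adjusted p = 3.52e-11). CD48, a GPI-anchored SLAM-family ligand, reached 288, 306 and 305 after amiodarone and 149, 146 and 149 in controls, 2.02-fold in the means (adjusted p = 1.4e-10). An annotated antisense gene covers 29.8% of the exonic bases of CD48, and whether the counting used strand is not given in the sources used here.

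CD86, the ligand of CD28 and CTLA4 on antigen-presenting cells, averaged 7.72 ± 0.569 after amiodarone and 3.59 ± 0.203 in controls, whereas the other CD28 ligand, CD80, stayed at or below 0.1 in all libraries. CD58, CD276 and CD40 rose 1.51-fold, 1.61-fold and 1.48-fold. CD58 is an adhesion ligand of CD2, CD276 a B7-family checkpoint molecule and CD40 a TNF receptor family member of antigen-presenting cells. CD200, an inhibitory ligand, had 1.7, 1.21 and 1.78 after amiodarone and 0.74, 0.5 and 0.67 in controls, and likewise passed the filter through the amiodarone libraries alone. CD274, which encodes the checkpoint ligand PD-L1, was at 0.1, 0.1 and 0.04 after amiodarone and 0.25, 0.06 and 0.05 in controls, too low for a comparison.

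CD47, the signal that restrains phagocytosis through SIRPA, fell to 37.8, 40.3 and 39.9 after amiodarone, against 50.1, 46.8 and 48.8 in controls. The groups did not overlap (log2 fold change -0.30, SE 0.036, limma, adjusted p = 1.91e-05). Its receptor gene SIRPA was higher, at 53.0 ± 0.917 after amiodarone and 42.7 ± 1.28 in controls. CD84, a SLAM-family receptor, averaged 4.18 ± 0.294 after amiodarone and 4.95 ± 0.317 in controls, and its call (adjusted p = 0.0147) ended under scaling by the median of ratios and without amiodarone replicate 1 or control replicate 1. CD83, a maturation marker of dendritic cells, was not called, at 10.31, 12.22 and 11.81 after amiodarone and 12.03, 13.42 and 12.5 in controls. Its adjusted p was 0.0687, and it was called lower with scaling to equal sums (adjusted p = 0.00761), with the replicate block (adjusted p = 0.0294) and without amiodarone replicate 2 (adjusted p = 0.0306).

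**Figure D2:**
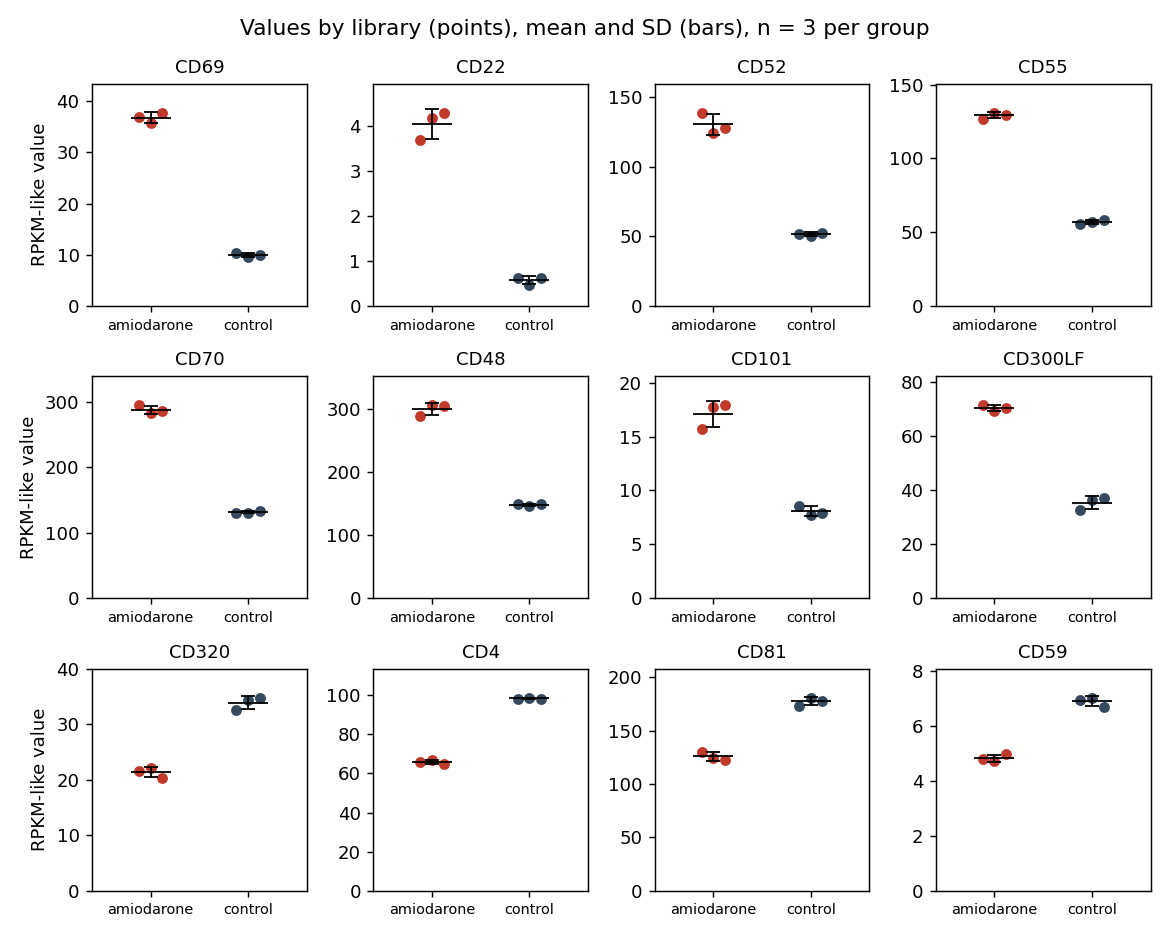
RPKM-like values of 12 CD-numbered genes in each library, with 3 amiodarone libraries left and 3 control libraries right in each panel. Black marks are the mean and SD, and each axis starts at 0. The top 8 genes, CD69 to CD300LF, lie higher after amiodarone, and CD320, CD4, CD81 and CD59 lie lower, without overlap.

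The 3 complement regulators moved in different directions. These proteins protect host cells from complement: CD55 speeds the decay of convertases, CD46 is a cofactor for cleavage of C3b, and CD59 blocks the membrane attack complex. CD55 had 127, 131 and 130 after amiodarone and 55.5, 57.1 and 58.1 in controls. This is 2.27-fold in the means, with groups far apart (log2 fold change 1.17, SE 0.028, adjusted p = 5e-11). CD46 fell to 71.4, 75.3 and 76.5 after amiodarone, against 86.2, 81.1 and 83.2 in controls, a smaller difference (log2 fold change -0.16, adjusted p = 0.000994). CD59 fell to 4.79, 4.71 and 4.97 after amiodarone, against 6.96, 7.03 and 6.69 in controls (adjusted p = 1.09e-05). By level CD46 stood above CD55 in controls and below it after amiodarone.

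Tetraspanins, membrane proteins with 4 spans that organise other receptors into domains, split 4 higher to 2 lower. The number of spans is the family's defining feature, and the 6 tested members include 3 of the 6 most abundant genes of the set. Over all tested genes 33.5% were called higher and 44.8% lower. CD37, a leukocyte tetraspanin, had 283, 267 and 261 after amiodarone and 198, 207 and 204 in controls. CD63, which resides in late endosomes, lysosomes and azurophil granules, had 229, 234 and 225 after amiodarone and 186, 195 and 190 in controls. Both rose without overlap, 1.33-fold and 1.21-fold in the means (limma, adjusted p = 4.51e-07 and 3.19e-06). CD82 rose 1.63-fold (70.6 ± 3.7 after amiodarone, 43.3 ± 1.2 in controls) and CD53 1.33-fold (58.2 ± 1.03 after amiodarone, 43.7 ± 1.18 in controls).

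CD81, a partner of integrins, went the other way, with 130.39, 124.66 and 122.68 after amiodarone and 173, 181 and 178 in controls. All amiodarone libraries lay under all controls (log2 fold change -0.49, SE 0.029, adjusted p = 5.23e-08). CD151, which binds laminin-binding integrins, had 28.0, 26.3 and 27.1 after amiodarone and 34.4, 37.4 and 34.5 in controls (adjusted p = 6.86e-06). CD9 was below the filter and overlapped between the groups, at 0.95, 0.5 and 0.54 after amiodarone and 0.66, 0.46 and 0.46 in controls.

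Of 11 receptors typical of monocytes, macrophages and granulocytes 5 were tested, with 2 higher, 1 lower and 2 not called. Over all tested genes 33.5% were called higher and 44.8% lower. CD101, an immunoglobulin-family receptor of myeloid and T cells, had 15.7, 17.7 and 17.9 after amiodarone and 8.59, 7.74 and 7.89 in controls. Its mean was 2.12-fold higher (log2 fold change 0.995, SE 0.058, adjusted p = 4.56e-08). CD68, a lysosome-associated glycoprotein of macrophages, rose 1.36-fold (43.2 ± 2.07 after amiodarone, 31.9 ± 1.33 in controls). Another annotated gene on the same strand covers 81.7% of the exonic bases of CD68. CD302, a C-type lectin receptor, had 18.6, 19.4 and 20.2 after amiodarone and 24.8, 23.9 and 24.8 in controls. It was called lower (limma, adjusted p = 1.92e-05), in a gene with 58.8% of its exonic bases opposite MARCH7. The annotated gene LY75-CD302 covers 15.5% of the exonic bases of CD302 on the same strand.

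CD33, a sialic acid-binding inhibitory receptor, was not called (log2 fold change 0.06, SE 0.032, adjusted p = 0.115). It was called higher under scaling by the median of ratios (log2 fold change 0.13, adjusted p = 0.00474) and without amiodarone replicate 2 (log2 fold change 0.086, adjusted p = 0.0358), and its sign turned with scaling to equal sums (-0.031). CD93, a C-type lectin-like receptor, passed the filter in 5 libraries, averaged 1.35 ± 0.15 after amiodarone and 1.1 ± 0.146 in controls with overlapping groups, and was not called (adjusted p = 0.0914). It was called higher under scaling by the median of ratios (adjusted p = 0.0425) and without amiodarone replicate 1 (adjusted p = 0.0483).

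The scavenger receptor gene CD163, which takes up haptoglobin-haemoglobin complexes, lay below the filter in all libraries. It had 0.76, 0.83 and 0.77 after amiodarone and 0.05 in each control, which is 15.7-fold in the means. CD14, the lipopolysaccharide co-receptor, had 0.67, 0.73 and 0.98 after amiodarone and 0.43, 0.25 and 0.36 in controls. In a fit without a filter on low values both were called higher (limma, adjusted p = 1.49e-06 and 0.00316). LY96, whose product MD-2 takes lipopolysaccharide from CD14 to TLR4, was higher at 7.41, 7.88 and 10.1 after amiodarone and 3.61, 3.29 and 2.61 in controls. TLR4 averaged 8.56 ± 0.316 after amiodarone and 7.44 ± 0.234 in controls, a call lost under equal-sum scaling (log2 fold change 0.098). CD180, a TLR-like receptor, had 0.3, 0.24 and 0.41 after amiodarone and 0.08, 0.1 and 0.08 in controls, and its partner gene LY86 overlapped between the groups at under 0.5.

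All 4 tested genes of the CD300 family were called higher, as were 33.5% of all tested genes. The call of CD300A did not hold in every alternative. These receptors of myeloid cells bind lipids; CD300A and CD300LF carry inhibitory tails, and CD300LB and CD300C signal through adaptors. CD300LF had 71.3, 69.0 and 70.3 after amiodarone and 32.6, 36.3 and 37.1 in controls, a 1.99-fold higher mean with no overlap (log2 fold change 0.97, SE 0.044, limma, adjusted p = 6.73e-09). CD300C had 11.6, 10.3 and 10.0 after amiodarone and 6.54, 8.11 and 9.24 in controls. CD300LB had 2.19, 2.83 and 2.56 after amiodarone and 1.71, 1.78 and 2.06 in controls.

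CD300A was nearly level, with 31.6, 30.9 and 32.6 after amiodarone and 28.95, 30.88 and 28.12 in controls. Its call (adjusted p = 0.0256) ended in 6 alternatives: equal-sum scaling (log2 fold change 0.022), no variance trend (adjusted p = 0.0541), the replicate block (adjusted p = 0.0508), and without amiodarone replicate 3 (adjusted p = 0.0858), control replicate 1 (adjusted p = 0.0705) or control replicate 3 (adjusted p = 0.112). CD300 genes are close paralogs, so reads may be split between them in ways not given here. The adaptor genes FCER1G and TYROBP rose to 581 ± 2.93 and 159 ± 3.36 after amiodarone, against 222 ± 8.42 and 90.3 ± 2.7 in controls. CD300LG had 1.28, 0.84 and 1.1 after amiodarone and 0.71, 0.65 and 0.6 in controls, just outside the filter with 2 libraries at 1 or more. CD300E, CD300LD and CD300H were under 1 in every library and overlapped between the groups.

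Of 17 T and NK cell receptor genes 4 were tested. CD4, the MHC class II co-receptor, which is also found on monocytes and myeloid leukaemia lines, was the most abundant, at 65.8, 66.7 and 65.0 after amiodarone and 98.1, 98.7 and 98.2 in controls. The replicates agreed closely and the groups were far apart (log2 fold change -0.57, SE 0.025, limma, adjusted p = 4.62e-09). CD244, the SLAM-family receptor that binds CD48, rose with 24.7, 24.0 and 24.5 after amiodarone and 18.3, 17.3 and 18.1 in controls (adjusted p = 1.06e-06). CD3G, a chain of the T cell receptor complex, had 2.5, 2.46 and 2.03 after amiodarone and 0.53, 0.75 and 0.88 in controls. It entered the test only through its amiodarone libraries, so its values are given as a description.

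The other CD3 chains were not called or not tested. CD3D had 1.57, 1.66 and 2.15 after amiodarone and 1.29, 2.11 and 1.85 in controls, overlapped and was not called. CD3E was at 0.24 or less in all libraries. CD247, the zeta chain, had 0.39, 0 and 0.07 after amiodarone and 0.65, 0.71 and 0.32 in controls, also with overlap. CD2, the receptor for CD58, had 0.76, 0.65 and 0.61 after amiodarone and 0.49, 0.49 and 0.42 in controls. CD27, the receptor for CD70, had 0.8, 0.53 and 1.11 after amiodarone and 0.58, 0.67 and 0.59 in controls, and 37.0% of its exonic bases lie opposite an antisense gene. CD7 and CD96 lay apart between the groups at low level, averaging 0.463 ± 0.0577 and 0.333 ± 0.0289 after amiodarone and 0.143 ± 0.0231 and 0.09 ± 0.0346 in controls.

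**Figure D3:**
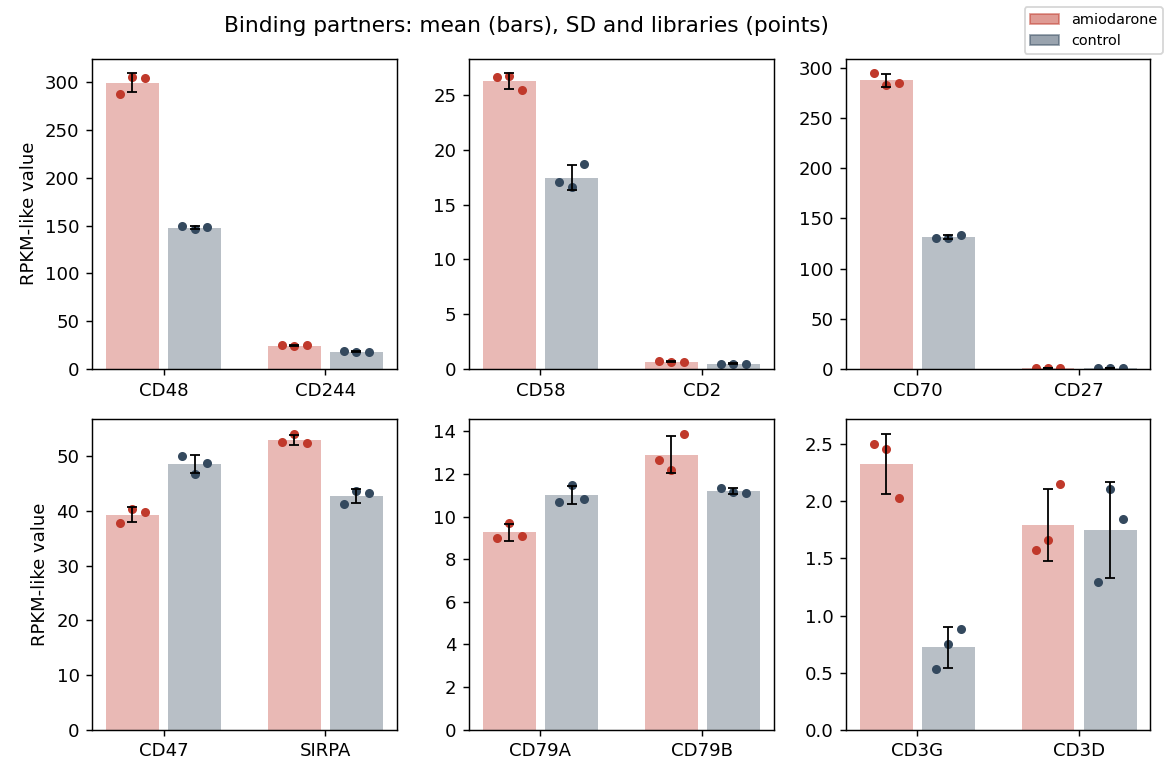
RPKM-like values of 6 pairs of genes whose products bind each other or sit in one receptor complex, with amiodarone left of control for each gene. Bars are means, error bars SD and points the 3 libraries. CD48 and its receptor CD244 are both higher after amiodarone, CD47 is lower while SIRPA is higher, and CD79A is lower while CD79B is higher.

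Among B cell receptor genes the largest change was that of CD22, a sialic acid-binding inhibitory receptor of B cells. It had 3.68, 4.17 and 4.3 after amiodarone and 0.61, 0.47 and 0.63 in controls. All controls were under the filter and all amiodarone libraries above it, 7.11-fold in the means. CD22 entered the test only through the libraries where it was high, so this too is a description.

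The signalling chains of the B cell receptor, CD79A and CD79B, changed slightly and in opposite directions. CD79A had 8.99, 9.7 and 9.09 after amiodarone and 10.7, 11.5 and 10.8 in controls (adjusted p = 0.0012). CD79B had 12.7, 12.2 and 13.9 after amiodarone and 11.3, 11.2 and 11.1 in controls (adjusted p = 0.00512), a call lost under equal-sum scaling (log2 fold change 0.10). CD72, an inhibitory B cell lectin, was not called at 1.41, 0.89 and 1.24 after amiodarone and 1.41, 0.7 and 1.16 in controls.

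CD74, the invariant chain of MHC class II, was the single tested antigen presentation gene. It had 71.6, 73.2 and 70.4 after amiodarone and 49.2, 48.9 and 50.3 in controls, 1.45-fold in the means and without overlap (adjusted p = 2.35e-08). The lipid-presenting CD1 genes were barely detected. CD1A, CD1B, CD1C and CD1E were listed at 0 in all controls and reached at most 0.09 after amiodarone. CD1D had 0.4, 0.21 and 0.53 after amiodarone and 0.56, 0.7 and 0.74 in controls.

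The 37 members below the filter include 13 of the 17 T and NK cell genes and 5 of the 6 antigen presentation genes. Their highest value was 1.28 and 2 of them reached 1 in any library. In 15 the amiodarone libraries all lay above the controls, in 3 below, and in 19 the groups overlapped. Of all 6466 genes below the filter 21% lay above and 10.4% below. Without a filter the fit called 12 of the 37 higher and 3 lower, against 17.3% and 8.94% of all genes below the filter. That fit called 10264 of all 17911 genes. The estimated depth makes a value of 1 worth 16.2 to 16.7 reads per kilobase of gene after amiodarone and 17.6 to 18.4 in controls. Values near 0 and those of short genes therefore rest on few reads. Longer genes, such as CD163 with 5813 exonic bases, have more reads behind the same value. A 0 in some library was listed for 11 of the 37, and a 0 in every library for none.

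**Figure D4:**
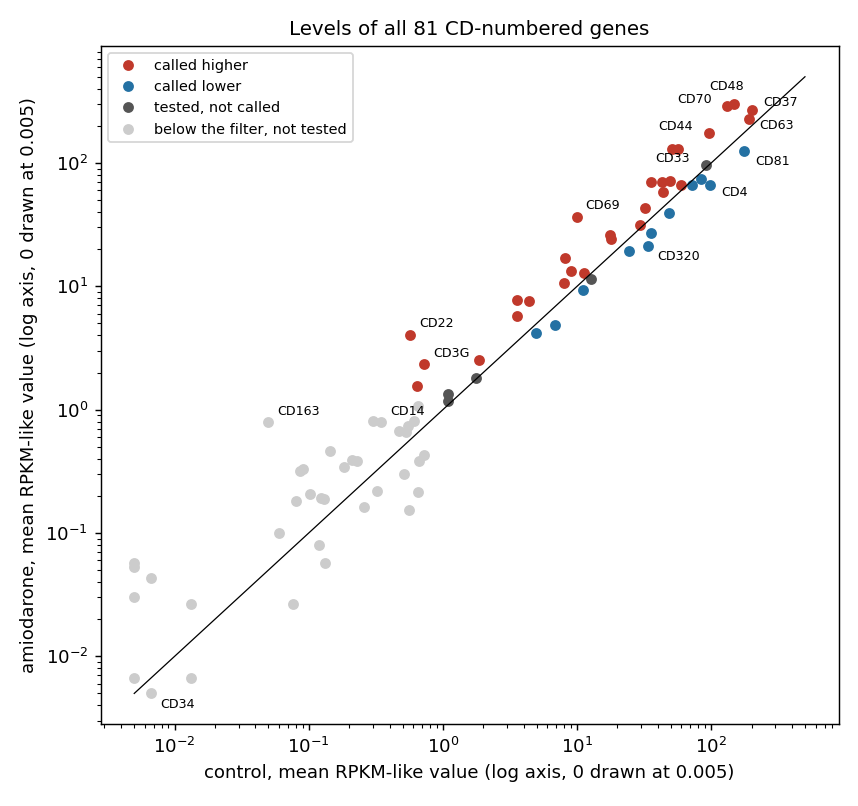
Mean RPKM-like value of each of the 81 CD-numbered genes after amiodarone (vertical) and in controls (horizontal), both on log axes, with the line of equal values. Grey points are the 37 genes below the filter, among them CD163 and CD14 above the line.

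The CD scheme also covers genes with other symbols, and 80 of these were listed as a comparison. Of the 66 tested, 34 were called higher and 22 lower, with a median log2 fold change of 0.17. Over all tested genes 33.5% were called higher and 44.8% lower, with a median of -0.06. SLAMF7 (CD319), among the 34, reached a value of 1 in the amiodarone libraries only. The 4 listed genes with the largest rises at a mean of at least 5 were CLEC7A, PLAUR, SLC3A2 and ITGAM. CLEC7A (CD369), the beta-glucan receptor dectin-1, had 35.8, 34.3 and 36.2 after amiodarone and 6.74, 7.54 and 7.21 in controls. PLAUR (CD87), the urokinase receptor, averaged 210 ± 7.02 after amiodarone and 77.9 ± 0.783 in controls. ITGAM (CD11b), the integrin chain of myeloid maturation, averaged 7.63 ± 0.0902 after amiodarone and 2.29 ± 0.0529 in controls. SLC3A2 (CD98), the amino acid transporter subunit, was 2.66-fold higher.

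The 4 with the largest falls at a mean of at least 5 were SDC1, ITGA5, ITGA6 and ANPEP. ANPEP (CD13), an aminopeptidase and myeloid antigen, had 462.81, 452.82 and 444.1 after amiodarone and 691, 701 and 712 in controls, above every CD-numbered gene in level. The integrin chains ITGA5 (CD49e) and ITGA6 (CD49f) stood at 0.482 and 0.584 times the control mean, and the proteoglycan SDC1 (CD138) at 0.227 times.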

How the data were processed

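Transcripts of HL-60 cells were measured in 6 libraries, 3 given amiodarone and 3 controls, grouped by the treatment label. Per the labels' protocols a stranded mRNA kit was used. Tools in the submitters' processing notes are STAR 2.5.3a, fastp 0.23.4 and featureCounts, with the build GRCh38.p12. Their settings, the annotation and any use of strand are not given in the sources. The deposited values are taken as RPKM, since the file header names no unit. They are not whole numbers, and their column sums differ (534486 to 574483). Low values of short genes with 1 transcript lay near whole steps in 54.5% to 66.4% of cases (within 0.15 of a step, where 30% would fall by chance for a step fixed in advance). The steps put depth at 16200000 to 18400000 reads, an estimate for which the step was chosen to raise that share. Whole reads could not be recovered.

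From the deposited values, 11445 genes at 1 or more in 3 or more libraries were tested with limma 3.58.1 in R 4.3.3 (lmFit, then eBayes with a variance trend). The model on log2(value + 1) held the treatment alone and left 4 residual degrees of freedom, to which 6.59 prior ones were added. P-values were adjusted by Benjamini-Hochberg across every tested gene. Log2 fold changes on this scale understate the change of low genes. Single folds are ratios of group means, and errors are SD over 3 libraries. The procedure was tested on simulated data in which a small part of the genes changed. In the real data 78.3% of tested genes were called, so that test cannot show how reliable these calls are. Log2 values correlated at 0.9975 to 0.9982 within groups and 0.959 to 0.96 between groups. At most 3.29% of nonzero values were identical in a pair of libraries. 26 symbols turned into dates were restored by Entrez ID. Overlaps were taken from GENCODE 29.

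The rule for the members uses symbols alone, but this set of members, like the role groups and lists, was chosen with earlier results of these data known. All members could be named, except 1 that is counted but not reported here; the 8 largest rises and 8 largest falls among called members without overlap, the 6 highest levels and the members not called are given in full. Of the other CD molecules the 4 largest changes each way at a mean of at least 5 are named, with markers and binding partners. Alternatives were 2 scalings, a pseudocount of 0.1, no filter, a minimum of 5, no variance trend, a replicate block, each library left out, and members overlapping another gene left out.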

Additional observations from a re-analysis of the deposited data

How the results depend on the processing

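All counts of calls stayed within 1.5 times in every alternative run: members called ranged from 34 (minimum value of 5) to 54 (no filter, 81 tested), and all genes called from 6941 to 10264. The median log2 fold change of the members was 0.46 with scaling by the median of ratios, 0.31 with scaling to equal sums and 0.14 without a filter, which adds 37 low genes. Leaving out 1 library gave medians of 0.25 to 0.41, with 41 members tested without any 1 amiodarone library, since CD22, CD3G and CD200 then missed the filter. The median over all genes moved from -0.061 as deposited to 0.003 and -0.145 under these scalings. Of 44 tested members 34 kept direction and side of the threshold in every alternative run on them. The other 10 were CD33, CD72, CD79B, CD83, CD84, CD93, CD99, CD164, CD300A and CD3D. 3 of them, none called, turned sign: CD33 (-0.031 with equal sums), CD72 (-0.008 without amiodarone replicate 1, and -0.073 to 0.18 over the libraries left out) and CD3D (-0.029 with equal sums, -0.061 without amiodarone replicate 3, and -0.098 to 0.12 over the libraries left out). The cause was not tested. Of 17 other genes checked, 1 changed: the TLR4 call was lost with equal sums. The calls of FCGR1A, LYZ, NKG7, KLRD1 and SLAMF7 were not checked in this way. With the replicate block 39 members and 8770 genes were called; the block ended the call of CD300A and added CD83. Deviations of same-numbered libraries correlated at -0.155, -0.018 and -0.023, and those of unlike-numbered libraries at -0.097 to 0.114. With 3 libraries per group these values cannot show whether the libraries were paired. The low values of genes under 1, such as 0.05 for CD163 in each control, limit what can be said of CD163, CD14 and the T and B cell antigens.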
